A study of Bos taurus with 34 samples.

Results

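The upper and the mid segment of the uterine horn were compared on the side that had ovulated, called the ipsilateral horn, in 9 endometrial RNA libraries of the 34 in the series. The libraries were chosen by their labels, 4 from the upper and 5 from the mid horn, and they form 4 complete pairs within the heifers numbered 10872, 10882, 11033 and 11070. Heifer 11110 contributed a mid horn library, and its ipsilateral upper horn was not analysed here. All animals were nulliparous adult Holstein heifers, given the same synchronisation with a progesterone insert (the 5-day CIDR-Synch protocol) and killed on day 2 after ovulation. No group was untreated or of another genotype. The 10 libraries of the opposite (contralateral) upper and mid horn, the 5 of the uterine body and the ampulla libraries of the oviduct served only for reference. Each library holds the RNA of a bulk sample of the lining. The labels do not say whether caruncles, the maternal sites of later placentation, or muscle were kept out of the sample. In such samples fewer cells of a type and less RNA per cell cannot be told apart.

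The upper horn ends at the uterotubal junction, through which the early embryo leaves the oviduct, and the mid horn lies further toward the uterine body. The wall of the horn is a mucosa of epithelium, glands and stroma over smooth muscle. Position along the tract is laid down by HOX genes, transcription factors of which the higher-numbered members act further toward the cervix. On day 2 the embryo is still in the oviduct and progesterone from the new corpus luteum has only begun to rise.

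Total counts of the 9 libraries ran from 12438895, in the upper horn of heifer 11070, to 30412782, in the upper horn of heifer 10872, with a median of 20649486. Between 21807 and 25878 features had at least 1 count. Levels are given as CPM, which are counts scaled to the library total with TMM factors, and compare libraries for 1 transcript but not different genes. The levels of KRT5, chosen after its values were seen, and of GRP set the libraries apart from the oviduct. They do not tell the upper from the mid horn. KRT5, a basal keratin that marked the oviduct in these data, was at 0.293 to 2.11 CPM in the upper horn and 0.273 to 5.86 CPM in the mid horn, against 885 to 1681 CPM in the ipsilateral ampulla. GRP, the gastrin-releasing peptide of endometrial glands, was at 2641 to 7360 CPM in the upper horn and 3158 to 9822 CPM in the mid horn, against 1.15 to 22.3 CPM in the ipsilateral ampulla.

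No transcript separated the upper from the mid horn at an adjusted p under 0.05. edgeR's quasi-likelihood test, with region and heifer as terms, called 0 of 17241 transcripts (0%), and the lowest adjusted p was 0.968, so that every edgeR adjusted p of this comparison is at least that high and is not repeated for each gene. At an unadjusted p under 0.05 there were 253 transcripts (1.47%), of which 200 (1.16%) were higher and 53 (0.307%) lower in the upper horn. With no difference at all, a calibrated test would put a share of about 0.05 under that threshold. This fit gave fewer small p-values than that, so its lack of calls does not show that the segments are alike. DESeq2 called 3 (0.0174%), which were DES, MYLK and LOC100138271, the last with 1 count in the upper and 0 in the mid horn. With no filter on low counts edgeR called 42 of 38568 features (0.109%), of which only 6 were features that the filter removes. In the 8 paired libraries alone, 0 of 12708 transcripts were called for region, 667 (5.25%) had an unadjusted p under 0.05, and the lowest adjusted p was 0.182.

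The precision differed between abundant and rare transcripts. The 95% interval of the fold change lay within 2-fold in either direction for 5596 of the 17241 transcripts (32.5%), with a median SE of 0.525 on the log2 scale. Among the 5209 transcripts with a mean of at least 10 CPM in the higher region it did so for 4219 (81.0%), with a median SE of 0.269. Their median log2 fold change was -0.11, against 0.026 over all tested transcripts. For most abundant transcripts a change of over 2-fold therefore lay outside the interval, while for most rare ones it did not.

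Transcripts of contractile smooth muscle were among those with the smallest p-values on the upper side. DES, the intermediate filament desmin, was at 124, 1780, 2423 and 202 CPM in the upper horn of heifers 10872, 10882, 11033 and 11070. In the mid horn it was at 120, 154, 105, 156 and 81.7 CPM in the same order, with heifer 11110 last. The upper libraries of heifers 10882 and 11033 stood above all others, and those of heifers 10872 and 11070 lay near their own mid horn. The fitted log2 fold change was 3.20 ± 0.70 (SE), with a 95% interval of 1.76 to 4.64, an unadjusted p of 1.0e-04 in edgeR and an adjusted p of 0.00131 in DESeq2. In the 8 paired libraries alone it was 2.14 ± 1.21 (edgeR unadjusted p = 0.161, adjusted p = 0.892). Without the upper libraries of heifers 10882 and 11033 it was 0.16 ± 0.58.

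**Figure D1:**
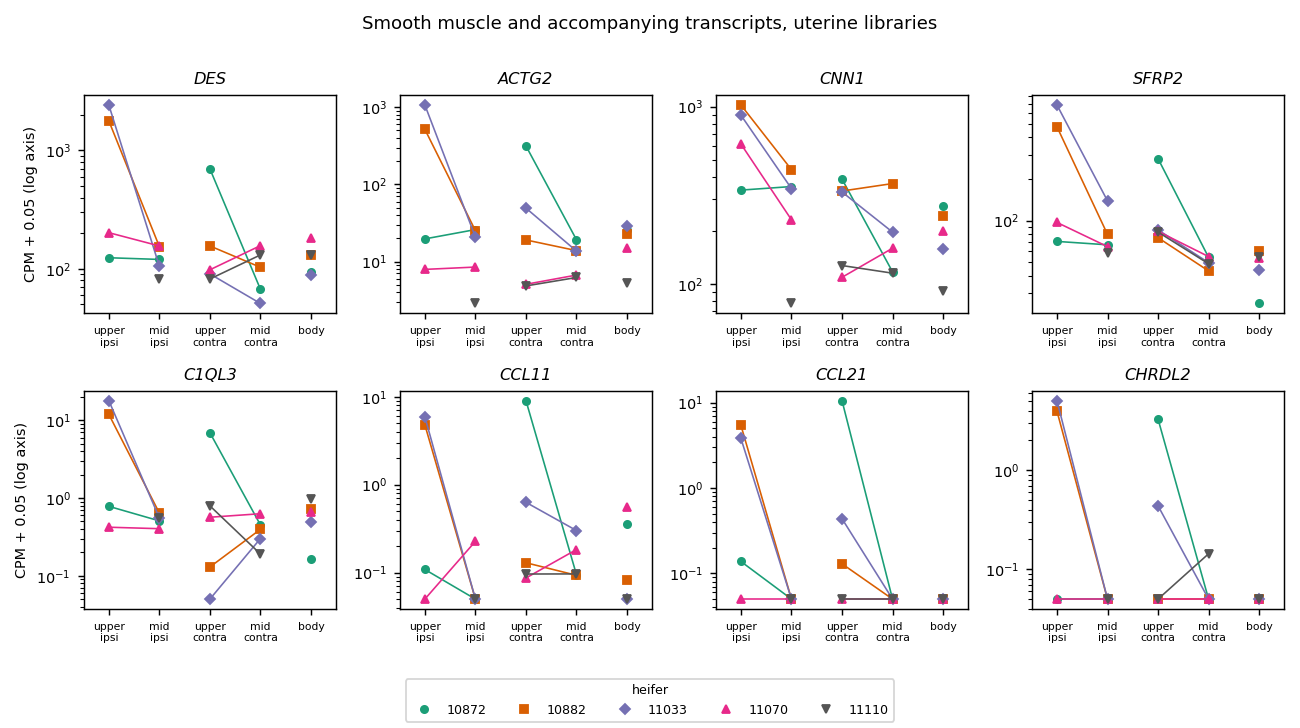
Levels of 8 transcripts in the uterine libraries, as CPM + 0.05 on a log axis, by region and side (ipsi, ipsilateral; contra, contralateral), 1 point per library and lines joining the upper and mid horn of a heifer. On the ipsilateral side the upper libraries of heifers 10882 and 11033 lie highest in each panel (for DES at 1780 and 2423 CPM), and on the contralateral side the upper library of heifer 10872 does.

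ACTG2, the enteric smooth muscle actin, had the same 2 libraries on top. It was at 19.6, 517, 1069 and 7.86 CPM in the upper horn of heifers 10872, 10882, 11033 and 11070, and at 25.9, 25.1, 20.7, 8.43 and 2.81 CPM in the mid horn. Only 2 of the 4 heifers had more in the upper horn. Its log2 fold change of 4.27 ± 1.10 (edgeR unadjusted p = 6.84e-04) was 2.48 ± 1.85 in the 8 paired libraries (unadjusted p = 0.264) and -0.56 without those 2 upper libraries.

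MYLK, the kinase that phosphorylates the myosin light chain to start contraction, differed more evenly among the heifers than DES and ACTG2. It was rare, with 300 counts in all in the upper and 81 in the mid horn. It was at 0.849, 3.9, 5.35 and 4.58 CPM in the upper horn and at 0.503, 1.0, 1.11, 0.750 and 0.451 CPM in the mid horn. Here heifer 11070 joined heifers 10882 and 11033, and only the upper library of heifer 10872 overlapped the mid horn values. The log2 fold change was 1.93 ± 0.50 (DESeq2 adjusted p = 0.0169), and it was 1.53 ± 0.67 without the upper libraries of heifers 10882 and 11033. In the 8 paired libraries it was 2.00 ± 0.35 (edgeR adjusted p = 0.592).

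CNN1, the actin-binding calponin, was at 338, 1020, 894 and 615 CPM in the upper horn and at 354, 441, 345, 230 and 77.6 CPM in the mid horn. It was higher in the upper horn in 3 of 4 heifers, and in heifer 10872 the values differed by -0.07 on the log2(CPM + 0.5) scale. KCNMB1, a subunit of the calcium-activated potassium channel of smooth muscle, was at 2.17, 50.1, 65.0 and 2.41 CPM in the upper horn and between 2.01 and 8.87 CPM in the mid horn. ASB2, a ubiquitin ligase subunit that targets filamins in muscle, was at 2.28, 23.9, 33.3 and 1.73 CPM in the upper horn and between 1.01 and 3.94 CPM in the mid horn. Without the upper libraries of heifers 10882 and 11033 the log2 fold change of KCNMB1 went from 2.58 to -0.76 and that of ASB2 from 2.35 to -0.36.

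Over the smooth muscle list, 15 of 15 genes had a feature and 11 passed the filter on low counts. edgeR called none (0% over all transcripts), DESeq2 called DES and MYLK, and edgeR with no filter called 4 of the list. In edgeR 7 of the 11 had an unadjusted p under 0.05 on the upper side, against 1.16% of all tested transcripts, and 6 were higher in the upper horn in 4 of 4 heifers, against 7.78%. The median log2 fold change was 1.60, against 0.03 over all tested transcripts. The median difference within heifers was 0.43, 1.30, 1.38 and 0.38 in heifers 10872, 10882, 11033 and 11070. Without the upper libraries of heifers 10882 and 11033 the median was 0.53, with 9 of 11 above 0 and 2 at an unadjusted p under 0.05. The summed level was 662, 3938, 4787 and 981 CPM in the upper horn and 626, 995, 591, 469 and 251 CPM in the mid horn. The features of ACTA2 and MYH11, the actin and myosin that usually define smooth muscle, were nearly empty, at most 0.50 CPM for ACTA2 and 0.0515 CPM for MYH11 in the 9 libraries, and neither feature had a usable level.

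On the opposite side DES and ACTG2 stood out in the upper library of another heifer, while MYLK did not. In the contralateral upper horn DES was at 699 CPM in heifer 10872 and at 82.0 to 156 CPM in the others, and ACTG2 was at 315 CPM in heifer 10872 and at 4.78 to 49.2 CPM in the others. CNN1 was at 390 CPM in that library and at 109 to 334 CPM in the others. MYLK was at 0.796 CPM in it and at 0.418 to 1.59 CPM in the others. The uterine body held 89.3 to 182 CPM of DES. The smooth muscle list had a median log2 fold change of 0.86 on the contralateral side. The difference between the sides for DES was 2.34 ± 0.93 on the log2 scale.

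Several secreted or membrane proteins had the same 2 upper libraries on top as DES and ACTG2. SFRP2, a secreted WNT antagonist of mesenchymal cells, was at 70.7, 478, 687 and 97.0 CPM in the upper horn and at 66.8, 79.5, 139, 64.8 and 58.1 CPM in the mid horn. It was higher in the upper horn in 4 of 4 heifers, with a log2 fold change of 2.04 ± 0.68, and of -0.13 ± 0.77 without the upper libraries of heifers 10882 and 11033. On the contralateral side SFRP2 was higher in the upper horn in 5 of 5 heifers, with 281 CPM in heifer 10872, 75.2 to 85.7 CPM in the other upper libraries and 43.2 to 54.9 CPM in the mid horn. RSPO3, which amplifies WNT signalling, was at 10.1, 61.9, 69.8 and 4.46 CPM in the upper horn and at 9.98, 7.50, 21.7, 5.43 and 14.7 CPM in the mid horn, and its log2 fold change of 1.40 became -0.47 without the same 2 libraries.

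CCL21, a chemokine of lymphatic vessels that draws T cells and dendritic cells, failed the filter on low counts because it was nearly confined to the same libraries. It was at 0.0879, 5.37, 3.76 and 0 CPM in the upper horn, 204 counts in all, with 0 counts in the 5 mid horn libraries. In the contralateral upper horn it was at 10.5 CPM in heifer 10872 and at no more than 0.387 CPM in the others, and it had 0 counts in the contralateral mid horn, the body and both ampulla groups. CCL11, the eosinophil chemokine eotaxin, was at 0.0586, 4.74, 5.87 and 0 CPM in the upper horn, at 0.177 CPM in the mid horn of heifer 11070 and at 0 in the other mid libraries, with 8.99 CPM in the contralateral upper horn of heifer 10872. The log2 fold change of CCL11 was 5.91 ± 1.87, and -1.13 ± 2.43 without the upper libraries of heifers 10882 and 11033. CHRDL2, a BMP antagonist that also failed the filter, was at 3.9 and 4.99 CPM in the upper horn of heifers 10882 and 11033, at 0 in the other ipsilateral libraries, and at 3.23 CPM in the contralateral upper horn of heifer 10872. KRT75, a keratin of hair follicles, was at 0, 3.48, 11.6 and 0.495 CPM in the upper horn and at no more than 0.309 CPM in the mid horn, with a log2 fold change of 5.04 ± 1.39 and 2.76 CPM in the contralateral upper horn of heifer 10872. Unlike CCL21, KRT75 was also present in the ampulla, at 2.75 to 4.13 CPM on the ipsilateral and 2.56 to 6.98 CPM on the contralateral side. CCL21, CHRDL2 and KRT75 were chosen after their values were seen.

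C1QL3, a secreted protein of the C1q family, was at 0.732, 11.9, 17.9 and 0.371 CPM in the upper horn and between 0.353 and 0.591 CPM in the mid horn. WFIKKN2, an extracellular protein that binds myostatin, was at 0.264, 2.10, 3.40 and 0.248 CPM in the upper horn and between 0 and 0.202 CPM in the mid horn. FBXL22, an F-box protein of muscle sarcomeres, was at 1.29, 11.8, 16.3 and 1.05 CPM in the upper horn and between 0.706 and 2.27 CPM in the mid horn. PTGFR, the receptor of prostaglandin F2 alpha, was at 0.410, 3.74, 6.07 and 0.0619 CPM in the upper horn and between 0.182 and 1.25 CPM in the mid horn. None of these 4 was called by edgeR or DESeq2 after the filter, while edgeR with no filter called C1QL3, WFIKKN2 and FBXL22 (adjusted p = 3.20e-07, 0.00321 and 0.00429). These 3 had passed the filter, and their log2 fold changes barely moved between the fits (3.86 in both for C1QL3). Their p-values changed with the set of features in the fit, for a reason that was not tested. Without the upper libraries of heifers 10882 and 11033 the log2 fold change of C1QL3 went from 3.86 to -0.32 and that of PTGFR from 1.75 to -1.61. The summed smooth muscle level of the libraries stood highest in the same 2 upper libraries. Its part in these values was not tested.

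C7, the complement component that starts insertion of the membrane attack complex, was less uneven. It was at 6.47, 18.2, 9.11 and 7.61 CPM in the upper horn and at 3.89, 4.91, 4.95, 6.09 and 3.06 CPM in the mid horn, so that every upper library lay above every mid library. Its log2 fold change was 1.14 ± 0.31 (edgeR unadjusted p = 8.19e-04), and 0.69 ± 0.37 without the upper libraries of heifers 10882 and 11033.

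An unnamed long non-coding RNA, LOC112444517, chosen after its values were seen, was at 0.234, 9.53, 7.93 and 1.30 CPM in the upper horn and at 0.0458, 0.273, 0.252, 0.221 and 0.150 CPM in the mid horn. Its highest libraries were those highest in DES, and it was higher in the upper horn in 4 of 4 heifers, with a log2 fold change of 4.31 ± 0.98. In the contralateral upper horn it was at 8.05 CPM in heifer 10872, at 0 in heifer 10882 and at 1.16 to 1.29 CPM in the others, against at most 0.178 CPM in the contralateral mid horn. With the upper minus mid difference averaged over both sides, a contrast added after the data were seen that reuses the ipsilateral libraries, 3 of 17241 transcripts were called (0.0174%) and 1049 (6.08%) had an unadjusted p under 0.05, and this RNA was higher in the upper horn by 4.53 ± 0.69 (edgeR adjusted p = 0.00431). The call was lost without heifer 11033 (adjusted p = 0.0864) or heifer 11070 (0.0580).

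The most posterior HOX genes were lower in the upper horn in every pair. HOXA13, a transcription factor of the caudal end of the reproductive tract, was at 3.51, 1.09, 0.618 and 0.309 CPM in the upper horn of heifers 10872, 10882, 11033 and 11070. In the mid horn it was at 10.2, 5.91, 2.93 and 1.72 CPM in the same heifers and at 2.56 CPM in heifer 11110. The heifers kept the same order in both segments, and within each of them the upper horn was lower, by 1.42 to 2.01 on the log2(CPM + 0.5) scale. The log2 fold change was -1.97 ± 0.62 (edgeR unadjusted p = 0.00346). In the 8 paired libraries it was -2.06 ± 0.29, with an adjusted p of 0.182.

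HOXA13 formed the same order on the other side and along the tract. On the contralateral side the upper horn was lower in 5 of 5 heifers, with 0.0738 to 3.18 CPM against 2.94 to 5.74 CPM in the mid horn and a log2 fold change of -2.17 ± 0.59 (edgeR adjusted p = 0.697). Over all transcripts that contralateral comparison called 0 of 17241 (0%), with 1108 (6.43%) at an unadjusted p under 0.05. The uterine body held 8.52 to 21.5 CPM and was above the ipsilateral mid horn in 5 of 5 heifers and above the ipsilateral upper horn in 4 of 4. The ipsilateral ampulla held at most 0.0433 CPM. Averaged over both sides, the upper horn differed from the mid horn by -2.07 ± 0.43 (edgeR adjusted p = 0.159). The difference between the sides was 0.21 ± 0.82 on the log2 scale.

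**Figure D2:**
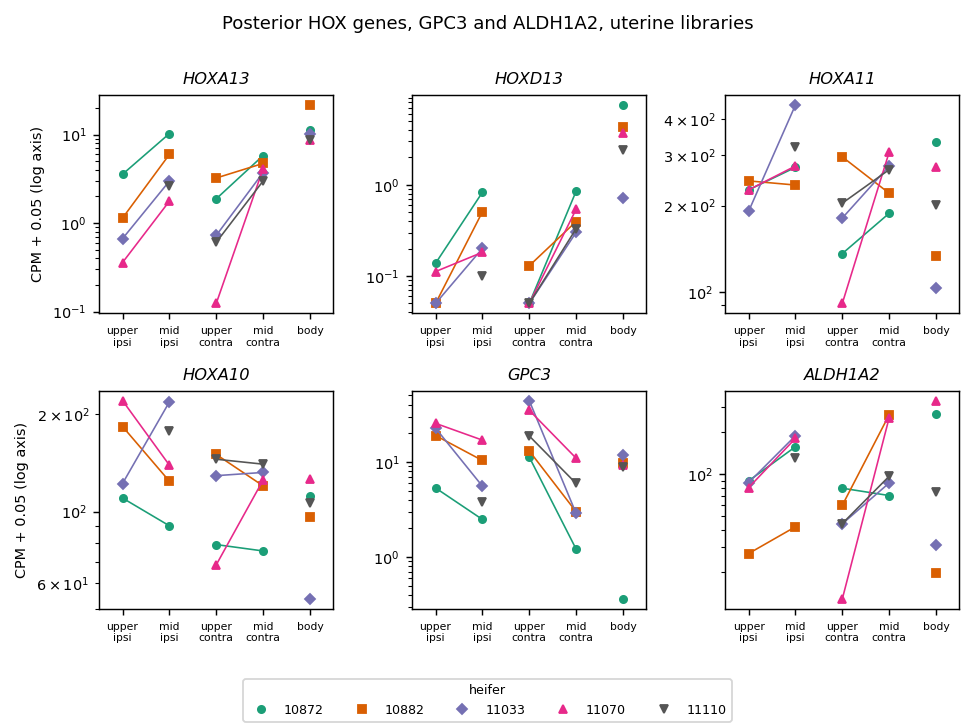
Levels of 4 HOX genes, GPC3 and ALDH1A2 in the uterine libraries, as CPM + 0.05 on a log axis, by region and side (ipsi, ipsilateral; contra, contralateral), 1 point per library and lines joining the upper and mid horn of a heifer. All lines of HOXA13 and HOXD13 run upward from the upper to the mid horn, the body value of each heifer lies above its horn values, and the lines of HOXA10 and HOXA11 run in both directions.

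HOXD13, its counterpart in the HOXD cluster, was rare. It was at 0.0879, 0, 0 and 0.0619 CPM in the upper horn, 4 counts in all, and at 0.778, 0.455, 0.151, 0.132 and 0.0501 CPM in the mid horn, 34 counts in all. In edgeR the log2 fold change was -2.97 ± 0.81 (edgeR unadjusted p = 0.00108). The contralateral upper horn had counts in heifer 10882 only, at 0.0795 CPM, against 0.251 to 0.801 CPM in the mid horn, and the body held 0.668 to 7.45 CPM. Averaged over both sides HOXD13 was lower in the upper horn by a called difference of -3.89 ± 0.61 (edgeR adjusted p = 0.00643), and of -4.01 ± 0.62 without the 3 libraries of the series that stood apart, all contralateral (mid horn of heifer 10882, upper horn of 11033 and ampulla of 11070) (adjusted p = 0.0102). The call was lost when heifer 10872, 10882, 11033 or 11070 was left out, with adjusted p values of 0.0679 to 0.191. Of the 3 libraries that stood apart, the contralateral mid horn of heifer 10882 held 454 CPM of KRT5, the oviduct marker. The other contralateral mid libraries held 3.69 to 40.5 CPM. Contralateral values given here include these libraries unless stated.

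Most other HOX genes did not share this order. HOXA7, at 6.24, 4.91, 6.49 and 2.97 CPM in the upper horn and at 8.97, 17.1, 6.61, 11.4 and 9.07 CPM in the mid horn, was also lower in 4 of 4 heifers, with a log2 fold change of -1.08 ± 0.50 (edgeR unadjusted p = 0.0375). HOXC5 was at 0.371 to 1.03 CPM in the upper and 0.546 to 2.29 CPM in the mid horn, lower in 3 of 4 heifers, with a log2 fold change of -1.20 ± 0.56. On the contralateral side the values were -0.38 ± 0.46 for HOXA7 and -1.46 ± 0.51 for HOXC5. HOXA11, needed for endometrial glands and stroma, was at 227, 244, 191 and 227 CPM in the upper horn and at 236 to 449 CPM in the mid horn, with a log2 fold change of -0.45 ± 0.36. HOXA10, a mediator of steroid action in the endometrium, was at 110, 183, 122 and 220 CPM in the upper horn and at 90.3 to 218 CPM in the mid horn, higher in the upper horn in 3 of 4 heifers. HOXA9 was at 59.6 to 148 CPM in the upper and 45.5 to 145 CPM in the mid horn, and HOXD9 at 96.4 to 152 and 81.4 to 143 CPM. Of the 29 HOX genes tested, 13 had a fold change above 0 and 16 below, with a median of -0.05. None was called, 4 had an unadjusted p under 0.05 on the lower side, against 0.307% of all transcripts, and 3 were lower in 4 of 4 heifers, against 6.06%.

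GPC3, a cell-surface proteoglycan that binds growth factors and was named after its values were seen, ran the other way. It was at 5.27, 18.9, 22.6 and 25.4 CPM in the upper horn and at 2.43, 10.3, 5.50, 16.9 and 3.76 CPM in the mid horn. The groups overlapped, but within each heifer the upper horn was higher, with a log2 fold change of 1.25 ± 0.49. The contralateral upper horn held 11.2 to 44.1 CPM against 1.16 to 10.9 CPM in the mid horn, higher in 5 of 5 heifers. Averaged over both sides GPC3 was called higher in the upper horn, by 1.87 ± 0.34 (edgeR adjusted p = 0.0348). Without the 3 libraries that stood apart it was 1.71 ± 0.35 and not called (adjusted p = 0.131), and it was not called without any single heifer either (adjusted p = 0.0709 to 0.530).

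ALDH1A2, which makes retinoic acid and is rich in mesothelium and stroma, was at 89.5, 27.1, 87.0 and 80.1 CPM in the upper horn and at 157, 42.1, 188, 180 and 131 CPM in the mid horn. The upper horn was lower in 4 of 4 heifers, and heifer 10882 had the lowest level in both segments. With all libraries the log2 fold change was -1.07 ± 0.62, and in the 8 paired libraries -0.89 ± 0.12 (edgeR unadjusted p = 2.14e-05, adjusted p = 0.182). CRABP1, which binds retinoic acid in the cytoplasm, was at 6.62, 18.8, 42.6 and 48.3 CPM in the upper horn and at 6.27, 10.9, 20.1, 32.5 and 15.2 CPM in the mid horn, higher in the upper horn in 4 of 4 heifers with a log2 fold change of 0.60 ± 0.52. The 10 tested genes of the retinoic acid list had a median of -0.13.

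Apart from HOXA13, 5 further genes had the smallest p-values among those with a symbol, a mean of at least 1 CPM in the mid horn and lower values in the upper horn of all 4 heifers, and edgeR and DESeq2 called none of them. GNMT, which uses up methyl groups by methylating glycine, was at 6.53, 1.93, 3.24 and 1.61 CPM in the upper horn and at 17.1, 3.32, 4.29, 4.24 and 4.96 CPM in the mid horn, with a log2 fold change of -1.16 ± 0.42 (edgeR unadjusted p = 0.00945). On the contralateral side the log2 fold change of GNMT was also -1.16 ± 0.39. TMEM37 was at 36.4, 12.9, 29.4 and 9.41 CPM in the upper horn and at 50.4, 19.3, 54.4, 22.7 and 63.9 CPM in the mid horn, with a log2 fold change of -0.93 ± 0.38. C16H1orf115 was at 115 to 176 CPM in the upper horn and at 180 to 220 CPM in the mid horn, groups that did not overlap, with a log2 fold change of -0.44 ± 0.20.

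TRPV6, the epithelial calcium channel, was at 0.498, 0.336, 0.515 and 0.124 CPM in the upper horn and at 1.19, 0.455, 1.21, 1.32 and 2.41 CPM in the mid horn, with a log2 fold change of -1.85 ± 0.71. MMP9, the gelatinase of leukocytes and remodelling tissue, was at 0.498, 0.210, 0.103 and 0.186 CPM in the upper horn and at 0.961, 0.227, 2.83, 0.309 and 24.7 CPM in the mid horn. The highest value came from heifer 11110, which has no upper horn library here, and in the contralateral mid horn the same heifer had 33.2 CPM. The log2 fold change of MMP9 was -2.34 ± 0.94 with all libraries.

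Immediate early genes, transcription factors and feedback regulators that cells induce within minutes of a stimulus, were high in the upper horn of heifers 10882 and 11070. FOS was at 79.5, 1624, 34.4 and 1054 CPM in the upper horn of heifers 10872, 10882, 11033 and 11070 and at 51.6, 259, 55.9, 542 and 74.0 CPM in the mid horn. Heifers 10882 and 11070 stood above the others in both segments, and heifer 11033 had less in the upper than in the mid horn. The log2 fold change was 1.40 ± 0.79.

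EGR3 was at 8.32, 185, 5.97 and 36.2 CPM in the upper horn and at 3.80, 22.5, 7.67, 11.9 and 8.22 CPM in the mid horn, with a log2 fold change of 1.94 ± 0.54 (edgeR unadjusted p = 0.00104). Without heifer 10882 it was 0.80. BTG2, an inhibitor of proliferation, was at 79.2, 1104, 74.8 and 422 CPM in the upper horn and at 68.0 to 176 CPM in the mid horn. IL6, an inflammatory cytokine that can act on the embryo, was highest in the same 2 libraries, at 0.439, 12.8, 0.206 and 3.78 CPM in the upper horn and at 0.252 to 0.883 CPM in the mid horn. Of the 20 genes of the list that were tested, 17 had a fold change above 0, against 52.6% of all transcripts, and 3 had an unadjusted p under 0.05 on the higher side, against 1.16%. None was called by edgeR or DESeq2, edgeR with no filter called 5, and none was higher in 4 of 4 heifers, against 7.78%. The median log2 fold change was 0.76 with all libraries and 0.22 without heifer 10882, and the median difference within heifers was -0.01, 1.76, -0.46 and 0.94 in heifers 10872, 10882, 11033 and 11070.

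**Figure D3:**
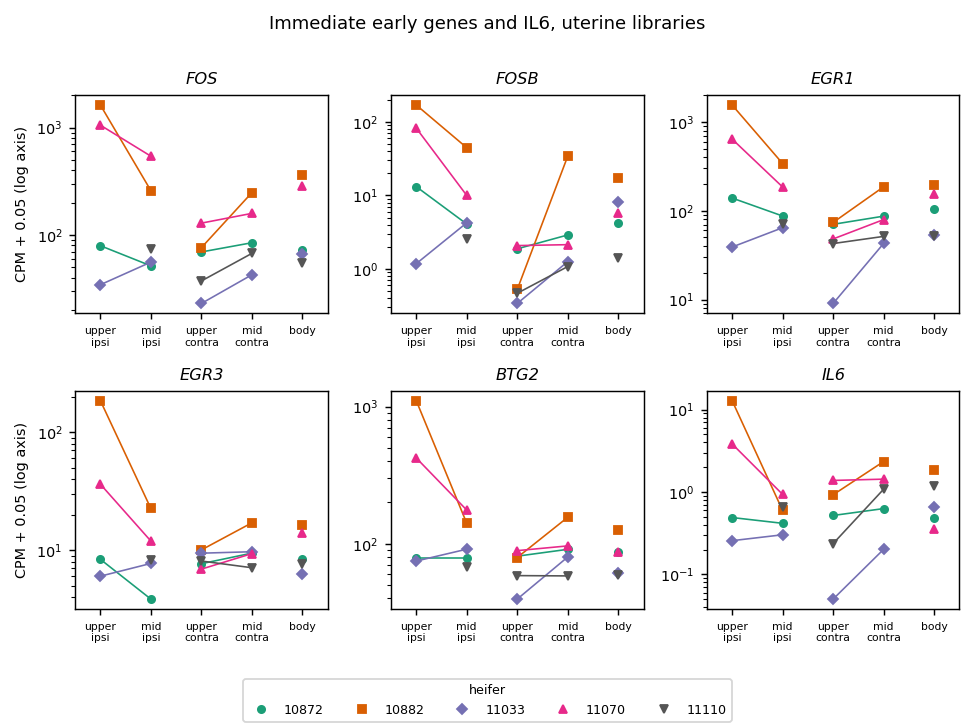
Levels of 5 immediate early genes and IL6 in the uterine libraries, as CPM + 0.05 on a log axis, by region and side (ipsi, ipsilateral; contra, contralateral), 1 point per library and lines joining the upper and mid horn of a heifer. The ipsilateral upper libraries of heifers 10882 and 11070 lie highest (for FOS at 1624 and 1054 CPM), and on the contralateral side the lines of FOS run upward from the upper to the mid horn in all 5 heifers.

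On the contralateral side these genes lay in the other direction. FOS was lower in the upper than in the mid horn in 5 of 5 heifers, at 23.0 to 129 CPM against 42.6 to 248 CPM, and the list had a median log2 fold change of -0.63. The test of the difference between the sides called 0 of 17241 transcripts (0%), with 252 (1.46%) at an unadjusted p under 0.05, so that no gene was shown to differ in its gradient between the sides. DESeq2 called 1 in that test, LOC100138271, which rested on 1 count in these 9 libraries. Among genes with a symbol and a mean of at least 1 CPM in 1 or more of the 4 horn groups, the 6 smallest p-values belonged to ERRFI1, FGFBP1, IL6, EGR3, SOCS3 and DUSP5. ERRFI1, a feedback inhibitor of the EGF receptor, was at 133, 450, 76.6 and 216 CPM in the upper horn and at 64.4 to 155 CPM in the mid horn, and its side difference was 1.55 ± 0.40 on the log2 scale (edgeR unadjusted p = 5.62e-04). SOCS3, which damps cytokine signals, was at 28.7, 297, 24.6 and 86.1 CPM in the upper horn and at 28.3 to 42.2 CPM in the mid horn, with a side difference of 1.89 ± 0.63. DUSP5, a phosphatase of ERK, was at 24.7, 114, 29.8 and 84.0 CPM in the upper horn and at 25.2 to 39.3 CPM in the mid horn, with a side difference of 1.30 ± 0.44. FGFBP1, which releases growth factors from the matrix, was at 0.322, 5.20, 0.824 and 14.3 CPM in the upper horn and at 0.404 to 8.17 CPM in the mid horn. Its side difference of 3.57 ± 1.08 came mostly from the contralateral side. The log2 fold change was 0.62 ± 0.75 on the ipsilateral and -2.95 ± 0.80 on the contralateral side. For ERRFI1, SOCS3 and DUSP5 the contralateral log2 fold changes were -0.66, -0.61 and -0.47.

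Other genes of the lists were also highest in the upper horn of heifers 10882 and 11070. PTGS2, the inducible prostaglandin synthase, was at 19.7, 65.6, 10.7 and 86.0 CPM in the upper horn and at 12.4 to 51.6 CPM in the mid horn. AREG, an EGF receptor ligand, was at 0.644, 6.34, 0.618 and 8.73 CPM in the upper horn and at 1.05 to 2.12 CPM in the mid horn. ADAMTS4, an aggrecanase, was at 47.2, 715, 33.4 and 430 CPM in the upper horn and at 48.7 to 183 CPM in the mid horn. SLC2A3, a glucose transporter, was at 35.6, 372, 27.3 and 267 CPM in the upper horn and at 38.9 to 160 CPM in the mid horn. In all 4 the upper horn of heifers 10882 and 11070 was above their own mid horn, and that of heifers 10872 and 11033 was below it.

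Markers of other cell types differed less between the segments. Of 11 general epithelium genes tested, 10 had a fold change below 0 with a median of -0.29, and the difference within heifers ran from -0.85 in heifer 10872 to 0.37 in heifer 11033. KRT8, a keratin of simple epithelia, was at 332, 273, 468 and 316 CPM in the upper horn and at 361 to 597 CPM in the mid horn. The 13 stroma genes had a median of -0.08, and COL1A2, a chain of collagen I, was at 14150 to 37126 CPM in the upper horn and at 13609 to 30865 CPM in the mid horn. The 16 ciliated epithelium genes had a median of 0.04 and the 10 gland genes one of -0.19. None of the 33 lists held a gene called by edgeR. DESeq2 called 2 genes of 1 list, DES and MYLK, and edgeR with no filter called 15 genes of 7 lists.

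Leukocyte and vessel genes were on the lower side in most cases. All 12 leukocyte genes tested had a fold change below 0, against 8165 of all 17241 tested transcripts, with a median of -0.41. Of these 12 genes, 3 were lower in 4 of 4 heifers, against 6.06% of all transcripts. On the contralateral side the median of this list was -0.05. C1QB, a complement subunit made by macrophages, was at 149, 96.5, 131 and 96.1 CPM in the upper horn and at 183, 138, 157, 186 and 207 CPM in the mid horn, so that the mid horn was above the upper horn in every heifer, with a log2 fold change of -0.55 ± 0.36. Of 10 endothelium genes 8 were below 0, with a median of -0.20, and 5 were lower in 4 of 4 heifers, against 6.06% of all transcripts. The contralateral median of the endothelium list was 0.06. CLDN5, a tight junction protein of endothelium, was at 72.4, 61.4, 72.5 and 33.5 CPM in the upper horn and at 76.2, 101, 97.8, 52.1 and 59.0 CPM in the mid horn. ESAM, an adhesion molecule of endothelium, was at 60.0 to 83.4 CPM in the upper horn and at 86.8 to 111 CPM in the mid horn, groups that did not overlap. The median of all transcripts with at least 10 CPM was also below 0, at -0.11.

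**Figure D4:**
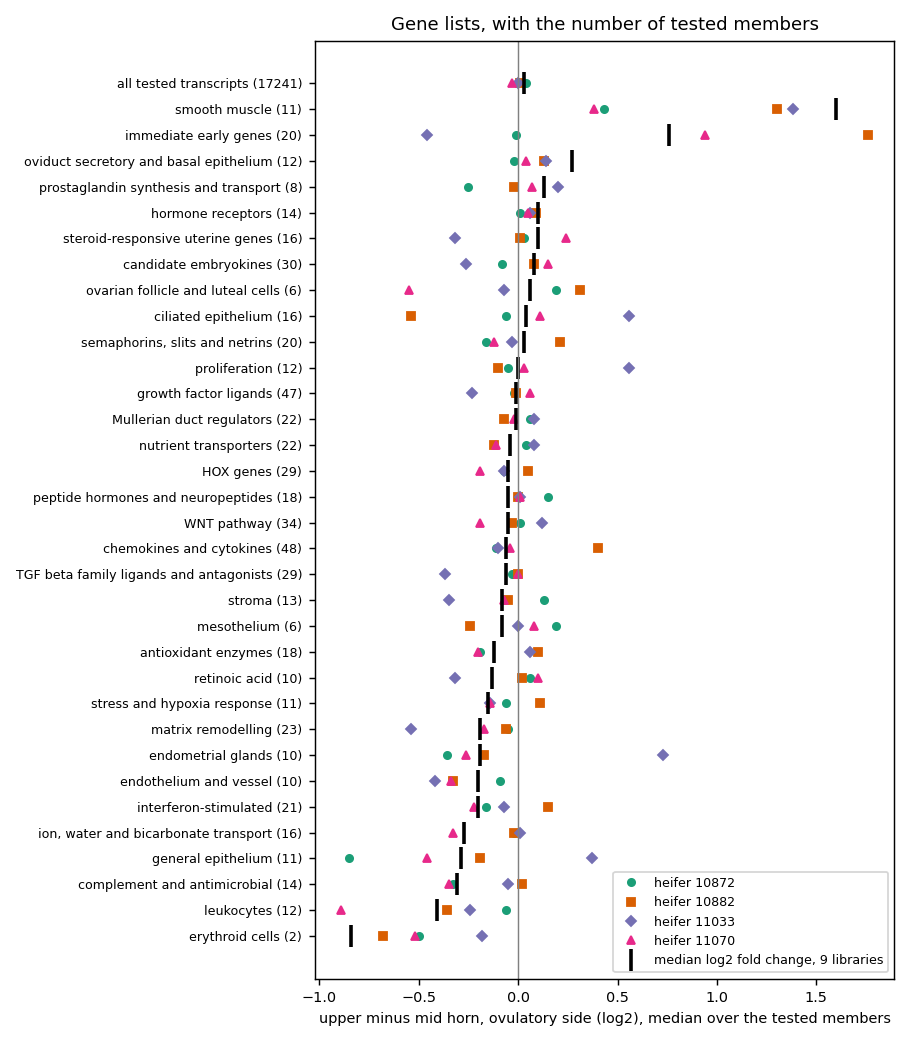
Upper minus mid horn on the ipsilateral side for 33 gene lists and for all tested transcripts, on the log2 scale. Coloured points are the median differences of log2(CPM + 0.5) over the tested members within each heifer, and black ticks the median log2 fold change of the 9 libraries in edgeR. Smooth muscle (1.60) and immediate early genes (0.76) have the highest ticks, with their points spread between heifers, and the other ticks lie between -0.84 and 0.27.

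Secreted signals to the embryo, which the series title calls putative embryokines, showed no called difference between the segments. Of 30 candidate embryokines tested, 16 had a fold change above 0 and 14 below, with a median of 0.08, and IL6 was the only 1 with an unadjusted p under 0.05. BMP2, a growth factor of the TGF beta family, was at 78.6, 57.8, 46.7 and 73.2 CPM in the upper horn and at 92.0, 73.8, 84.4, 86.2 and 178 CPM in the mid horn, lower in the upper horn in 4 of 4 heifers. Its log2 fold change was -0.51 ± 0.29 (edgeR unadjusted p = 0.0858). The 48 chemokine and cytokine genes had a median of -0.06, the 47 growth factor ligands one of -0.01, the 29 TGF beta family genes one of -0.06 and the 20 semaphorin, slit and netrin genes one of 0.03.

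Among single ligands, GDNF, a growth factor of neurons and kidney, was at 2.78, 2.94, 0.515 and 3.9 CPM in the upper horn and at 0.366, 0.864, 1.31, 2.78 and 0.501 CPM in the mid horn, higher in the upper horn in 3 of 4 heifers with a log2 fold change of 1.62 ± 0.72. CCN3, a matricellular protein, was at 160, 459, 501 and 169 CPM in the upper horn and at 104 to 271 CPM in the mid horn, with the same 2 upper libraries on top as the muscle genes, and its log2 fold change of 0.97 became -0.15 without them. NPPC, the C-type natriuretic peptide, was at 0.495 to 1.13 CPM in the upper horn and at 1.14 to 1.95 CPM in the mid horn. The ranges nearly met, at 1.13 and 1.14 CPM in heifer 10882, and the log2 fold change was -1.18 ± 0.68. PENK, the precursor of enkephalins, was at 11.8, 33.3, 64.2 and 266 CPM in the upper horn and at 3.62, 23.2, 54.0, 174 and 32.9 CPM in the mid horn. It was higher in the upper horn in 4 of 4 heifers, with a log2 fold change of 0.79 ± 0.39, while the heifers themselves spanned a far wider range.

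Hormone receptor, prostaglandin, WNT and nutrient transporter genes had list medians near 0, and ion transport and defence genes had medians further below 0. The 14 hormone receptors had a median of 0.10, the 8 prostaglandin genes one of 0.13, the 34 WNT pathway genes one of -0.05, the 22 nutrient transporters one of -0.04 and the 16 steroid-responsive uterine genes one of 0.10. PGRMC1, a membrane-associated progesterone receptor component, was at 243 to 487 CPM in the upper horn and at 305 to 487 CPM in the mid horn. The 16 ion and water transport genes had a median of -0.27, the 14 complement and antimicrobial genes one of -0.31 and the 21 interferon-stimulated genes one of -0.20. Of the 14 complement and antimicrobial genes, 4 were lower in 4 of 4 heifers, against 6.06% of all transcripts, and 1 was higher in all 4. Of 23 matrix remodelling genes, 18 were below 0 with a median of -0.19, and 8 were lower in 4 of 4 heifers, against 6.06% of all transcripts. CFD, complement factor D, was at 50.9 to 84.5 CPM in the upper horn and at 83.4 to 125 CPM in the mid horn, with a log2 fold change of -0.64 ± 0.35. IFIH1, a sensor of viral RNA, was at 32.9 to 52.0 CPM in the upper horn and at 38.4 to 73.5 CPM in the mid horn, lower in the upper horn in 4 of 4 heifers.

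The upper and mid libraries of a heifer resembled each other. In the 8 paired libraries the heifer term, tested after the data were seen, called 1195 of 12708 transcripts (9.40%). The region term called 0, but it has 1 degree of freedom and the heifer term 3, so the 2 counts do not compare the sizes of the differences. Deviations from the region means correlated between the upper and mid horn of the same heifer with Pearson's r of 0.456 to 0.638 over transcripts (4 pairs) and between different heifers with -0.463 to 0.359 (12 pairs), and each of the 4 upper libraries was closest to the mid library of its own heifer. The upper minus mid differences themselves had r between -0.181 and 0.347 for the 6 pairs of heifers. These correlations are descriptions over transcripts, which are not independent replicates. Each region was centred on the mean of its own 4 paired libraries. A positive r of deviations within heifers therefore lowers the r between heifers by construction.

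**Figure D5:**
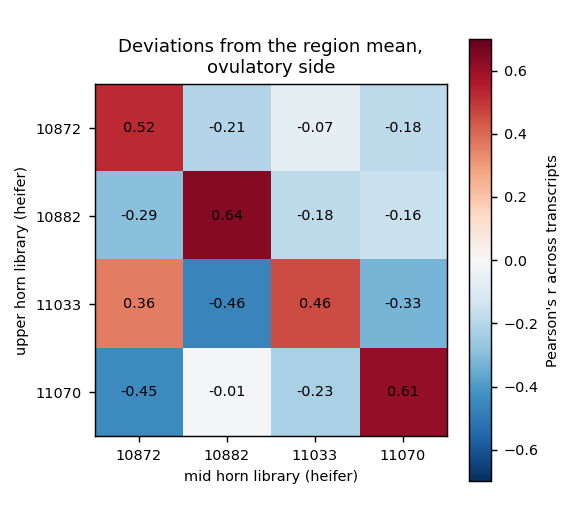
Pearson's r, across tested transcripts, between the deviations of 4 upper horn libraries (rows) and 4 mid horn libraries (columns) from their region means on the log2(CPM + 1) scale, by heifer. The diagonal, where both libraries come from the same heifer, holds 0.456 to 0.638, and the other cells hold -0.463 to 0.359.

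Genes of antibody-forming cells were among those with the lowest p-values for heifer. IGCGAMMA, an immunoglobulin G heavy chain constant region, was at 14.8, 7768, 2.16 and 53.0 CPM in the upper horn of heifers 10872, 10882, 11033 and 11070 and at 19.1, 11729, 7.42 and 98.7 CPM in their mid horn, with 120 CPM in heifer 11110 (heifer term adjusted p = 1.16e-06 in edgeR). Heifer 10882 stood apart in both segments, and in the body it held 4551 CPM. Immunoglobulin genes share sequence, so their single levels are uncertain. MZB1, a protein of plasma cells that helps antibody secretion, was at 37.4 and 51.6 CPM in the upper and mid horn of heifer 10882 and at 1.67 to 2.6 and 2.01 to 8.47 CPM in the others (heifer term adjusted p = 5.75e-05 in edgeR). CD69, an early activation antigen of lymphocytes, was at 50.7 and 40.5 CPM in heifer 10882 and at 0.967 to 4.24 CPM in the others (7.21e-05).

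CCL14, a chemokine of monocytes, was at 9.35 and 9.36 CPM in the upper and mid horn of heifer 11070 and at 53.5 to 135 CPM in the others, and the heifers kept their order in both segments (heifer term adjusted p = 3.81e-05). PENK (3.03e-04), CRABP1 (0.00191) and ALDH1A2 (8.06e-04) were called for heifer as well, while DES (0.681), ACTG2 (0.562) and CNN1 (0.264) were not. By list, heifer was called for 9 of 19 interferon-stimulated genes, 8 of 20 matrix remodelling genes, 13 of 38 chemokines and cytokines, 10 of 32 WNT pathway genes and 4 of 12 leukocyte genes, against 0 of 12 stroma genes and 0 of 10 general epithelium genes and 9.40% of all transcripts. Of 9 smooth muscle genes tested for heifer 3 were called, although DES, ACTG2 and CNN1 were not. The libraries of a heifer share the animal, so these differences are between animals of 1 group.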

How the data were processed

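RNA of the reproductive tract lining was sequenced in 34 libraries from 5 heifers, in 7 groups. Per the labels, tissue was homogenised with beads, total RNA was purified on columns and a directional library kit was used. The authors deposited raw read counts per feature in 1 table. The tools were cutadapt, HTSeq, SAMtools and STAR 2.7.9a, per the submitters' processing notes. What is not given in the sources used here is the genome build, the annotation, the strand setting and how shared reads were counted. Most features are single transcripts, so reads shared between transcripts of a gene may be lost. Of 38568 features, 26362 with 95.3% of all counts were matched to 21554 genes of a RefSeq table (ARS-UCD2.0, used for names only). A gene was read from its most abundant feature. No coordinates or sequences were used.

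Models were fitted in R 4.3.3 with edgeR 4.0.16 (TMM scaling, filterByExpr, robust dispersions, quasi-likelihood F test) over all 34 libraries, with terms for group and heifer, and 17241 transcripts passed the filter. A call is a Benjamini-Hochberg adjusted p under 0.05 over all tested transcripts. Errors of log2 fold changes are standard errors from edgeR. Differences within heifers are of log2(CPM + 0.5). Heifer was a block because both segments came from the same animals by the labels, and same-heifer libraries deviated together (r from 0.456 to 0.638). No pair of libraries of the same region agreed within sampling noise (chi-square per transcript 61.5 to 336 over 16 pairs). An exact sign-flip test over 4 pairs cannot go below a two-sided p of 0.125 and was not used. The edgeR fit was also run on simulated independent counts, which had no shift of whole libraries. That run is not used as support for the absence of calls.

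Gene names followed a rule: as no gene was called, the 6 smallest unadjusted p-values in each direction among genes with a symbol, at least 1 CPM in the higher region and the same sign in 4 of 4 pairs, the 6 smallest p-values in either direction, the 6 smallest for the difference between sides, and 2 genes of each of 33 lists. Other genes were named after their values were seen: CNN1, KCNMB1, ASB2, KRT5, COL1A2, HOXA7, HOXC5, HOXA9, HOXA10, HOXA11, HOXD9, FOS, GPC3, CCL21, CHRDL2, KRT75, LOC112444517, LOC100138271, IGCGAMMA, MZB1, CD69 and CCL14. The comparison, the lists and the tests were chosen with earlier results of these data known. Alternatives were another tool (DESeq2 1.42.0), another scaling, no filter, no heifer block, fewer libraries and each heifer left out.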

Additional observations from a re-analysis of the deposited data

Results flagged for a closer look

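Among 110 named genes, 168 groups of 4 or 5 libraries with a mean of at least 1 CPM were searched for a library far from the rest. The measure was Dixon's criterion on the log2(CPM + 0.5) scale, which chance meets in about 1 of 20 groups. It was met by 9 libraries, which is near that chance share. The flags are therefore descriptions only. Heifer 10882 gave 5 of them: ALDH1A2 was low in its upper horn (27.1 CPM) and mid horn (42.1 CPM), CD69 was high in both (50.7 and 40.5 CPM), and MZB1 was high in its upper horn (37.4 CPM). Heifer 10872 had high GNMT (17.1 CPM) and GRP (9822 CPM) in the mid horn. BMP2 was high in the mid horn of heifer 11110 (178 CPM), and HBQ1, a globin gene, in that of heifer 11070 (19.3 CPM). For ALDH1A2 and CD69 the same heifer stood apart in both segments.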

How the results depend on the processing

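The count of 0 called transcripts held with DESeq2 size factors in edgeR, with the 24 endometrium libraries, with the 8 paired libraries, without the 3 libraries that stood apart, without the upper libraries of heifers 10882 and 11033, and at 0 to 0 calls when each heifer was left out. Without the replicate block for heifer it was also 0. DESeq2 gave 3 calls, all 3 higher, no filter 42 calls (31 higher and 11 lower, 6 of them on features the filter removes) and the average over both sides 3 (2 higher and 1 lower). The difference between sides had 1 call in DESeq2 and 69 with no filter. The average over both sides gave 0 to 2 calls when each heifer was left out. ACTG2 and C1QL3 reversed to -0.56 and -0.32 without the upper libraries of heifers 10882 and 11033, as did PTGFR (-1.61), CCL11 (-1.13), KCNMB1 (-0.76), RSPO3 (-0.47), ASB2 (-0.36), CCN3 (-0.15), SFRP2 (-0.13) and CCL14 (from -0.15 to 0.06). The cause of these shifts was not tested. Of 194 recomputed values for 14 named genes, 183 kept direction and side of the threshold, and of 462 list medians 426 moved by less than the SD between heifers. With 4 pairs, the 95% interval of most rare transcripts reached beyond 2-fold. Far larger fitted changes, such as those of ACTG2 (4.27 on the log2 scale) and CCL11 (5.91), were not called by edgeR either.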
